A study of Mus musculus with 4 samples.

Results

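The 2 mouse Smaug mRNAs, *Samd4* and *Samd4b*, were examined together with 8 mRNAs of the CCR4-NOT deadenylase, *Cnot1*, *Cnot2*, *Cnot3*, *Cnot6*, *Cnot6l*, *Cnot7*, *Cnot8* and *Cnot10*. These 10 genes were taken by symbol from a table of 16537 genes, and all 10 had a row. They were measured by RNA-seq in YUMM1.7 cells, a mouse melanoma line, labelled wildtype, with fractionation as the only treatment given. Cells were plated on membranes coated underneath with fibronectin, whose pores of 1 µm admit protrusions but not the cell body, and 2 libraries were made from the scraped cell bodies and 2 from the protrusions left in the membrane. Each of the 2 replicates pooled 6 inserts and gave both fractions, and the labels call the replicates biological without saying what separates them. All cells came from this line, so the spread between libraries does not cover other melanomas.

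Smaug proteins bind stem-loops in mRNAs through a SAM domain and repress the mRNAs they bind, and the fly protein is known for repressing maternal mRNAs in the early embryo. They do so in part by recruiting CCR4-NOT, the main cytoplasmic enzyme that shortens poly(A) tails. In this complex CNOT1 is the scaffold, CNOT2 and CNOT3 form a module at its C-terminal end, CNOT10 belongs to a module at its N-terminal end, and the tail is removed by CNOT6 or CNOT6L together with CNOT7 or CNOT8, paralogous pairs in which a complex is thought to hold one of each. The comparison asked whether the mRNAs of the Smaug proteins and of the enzyme they recruit were divided alike between protrusions and cell bodies.

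The libraries held 25854838 to 30994908 reads assigned to genes, and each of the 10 mRNAs had between 562 and 11691 reads in a library. Levels are TPM, a read share scaled by transcript length, so that genes can be set side by side within a library. A value in protrusions is therefore relative to the other RNAs there, and fewer cells holding an mRNA in their protrusions cannot be told apart from less of it in each. Controls of the fractionation were read first. The 4 mRNAs that the study used as evenly spread, *Ppia*, *Ywhaz*, *Rhoa* and *Arpc3*, had log2 fold changes between the fractions, protrusions over cell bodies, of -0.08 to 0.27 and none passed the test, whereas *Rab13*, *Net1*, *Cyb5r3* and *Kif1c*, at 1.06 to 2.04, all did. The 5 nuclear noncoding RNAs tested lay between -0.94 and -0.60, and 2 of them, *Rmrp* and *Rpph1*, passed as lower. *Malat1* also passed as lower with the replicate as a block (limma adjusted p = 0.0874 without it and 0.00895 with it). Of 10 melanocyte markers, 6 had a row, and they differed widely in level. *Gpnmb* was the highest, at 37.8 to 77.7 TPM, and was lower in protrusions (limma adjusted p = 0.0812, and 0.00657 with the replicate as a block). *Mitf* stood at 5.12 to 6.17 TPM and *S100b* at 2.55 to 5.86 TPM. The pigment cell gene *Pmel* was at 0 to 0.0696 TPM, *Tyr* at 0.195 to 0.762 TPM and *Erbb3* at 0.0877 to 0.147 TPM. The first protrusion library held 58.1 TPM of a list of 10 liver genes, led by *Alb* at 28.4 TPM, against 1.19 to 3.18 TPM in the other 3 libraries. Without a block no liver gene passed. With the replicate as a block *Alb* and *Ttr* were called higher in protrusions (limma adjusted p = 0.0282 and 0.0365), although both were high in that library alone. The part of the liver genes in any difference given here was not tested, and values without that library stand beside the Smaug results. Of 6 immune markers, 3 had a row and summed to 2.10 to 3.98 TPM. Nearly all of this was *Cd68*, at 2.09 to 3.93 TPM, with *Ptprc* at most 0.0785 and *Lyz2* at most 0.210 TPM. Epithelial markers summed to at most 0.212 TPM. Of 5 fibroblast markers, 4 had a row and summed to 304 and 416 TPM in cell bodies and 224 and 176 TPM in protrusions, where *Pdgfra* passed as lower. Nearly all of the fibroblast sum came from *Pdgfra*, at 91.0 to 245 TPM, and *Col6a3*, at 83.5 to 166 TPM. *Dcn* was at 0.320 to 3.92 TPM and *Lum* at 0.0625 to 0.520 TPM.

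The study traced protrusion localization of another mRNA, *Kif1c*, to GA-rich elements in its 3′ UTR, so the 3′ UTRs of the Smaug mRNAs were read for GA-rich words. Shown here, 5′ to 3′ in the sense of the mRNA, are the 30 bases of each that hold the most bases of 4 words, each GAAG followed by AA, AG, GA or GG, and then the most purines, with the words in capitals.
*Samd4*, chr14:47102762-47102791, plus strand of GRCm38: gggagGAAGAGgggacaatggaaacagaag
*Samd4b*, chr7:28400142-28400171, minus strand of GRCm38: cagggagggaGAAGAAgccagggggtagag
The *Samd4* stretch lies 1303 to 1332 bases after the stop codon in the 3′ UTR of 1691 bases of the transcript used, and 27 of its 30 bases are purines. That transcript holds 4564 of the 8658 exonic bases annotated for *Samd4*, so any 3′ UTR sequence outside it was not searched. For *Samd4b* the transcript used holds 4391 of 4672. The *Samd4b* stretch lies 1418 to 1447 bases after the stop codon of a 3′ UTR of 2067 bases, with 26 purines. Both stand far from the stop codon, but each holds only 1 word. For *Samd4*, whose 3′ UTR holds 5 words, the purine count therefore decided which was shown, and the places of the others are not given. Only the sense strand was searched, words could overlap, and 68.5% of 10416 annotated 3′ UTRs hold at least 1 word, so that a match marks no site.

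*Samd4* mRNA, encoding Smaug1, was about 2 times as abundant in protrusions as in cell bodies. The gene lies at chr14:46882965-47105817 on the plus strand of mm10. Its level was 20.2 and 16.9 TPM in the 2 cell body libraries and 42.0 and 33.7 TPM in the 2 protrusion libraries. Both protrusion libraries stood well above both cell body libraries, and within each fraction replicate 1 was the higher. Cell bodies averaged 18.6 ± 2.36 TPM (SD, n = 2) and protrusions 37.9 ± 5.86 TPM (SD, n = 2), which differed by 2.08-fold in replicate 1 and 2.00-fold in replicate 2. In a limma fit over all genes the log2 fold change was 1.01 (SE 0.17, 95% confidence interval 0.59 to 1.42), with an adjusted p of 0.0382. Only 102 of the 11400 genes tested, 0.895%, were fitted at 2-fold or more higher in protrusions, and *Samd4* was at percentile 99.2 of all fold changes. Its reads numbered 1626 to 4262 in a library, giving a counting error of at most 2.48%, against a spread between replicates of 12.7% in cell bodies and 15.5% in protrusions. Without the protrusion library that held the liver genes the log2 fold change was 0.85 (adjusted p = 0.0912), and leaving out any other library also took the p past 0.05.

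*Samd4b*, the paralog that encodes Smaug2, was the less abundant of the pair and differed between fractions in the same direction. It lies at chr7:28399522-28436191 on the minus strand. Cell bodies held 8.30 and 9.89 TPM and protrusions 16.1 and 18.1 TPM. The fractions did not overlap, and here replicate 2 was the higher within each fraction, the opposite of *Samd4*. The means were 9.09 ± 1.12 TPM (SD, n = 2) and 17.1 ± 1.38 TPM (SD, n = 2), a difference of 1.95-fold in replicate 1 and 1.83-fold in replicate 2. The fitted log2 fold change was 0.88 (SE 0.16, interval 0.48 to 1.28), with an adjusted p of 0.0418, at percentile 98.4 of all genes. With 562 to 1353 reads in a library its counting error was at most 4.22%, below the spread between replicates of 12.4% and 8.05%. Leaving out the protrusion library with the liver genes gave 0.96 (adjusted p = 0.0899), and as for *Samd4* no fit on 3 libraries kept the call. With the replicate as a block both Smaug mRNAs were called with smaller p, 0.00166 for *Samd4* and 0.00624 for *Samd4b*. Both are on the study's list of enriched mRNAs, which was drawn from these same libraries, so their direction is not independent evidence. That list was cut at 2-fold by the study's own measure, and *Samd4b* was fitted here at 1.84-fold.

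**Figure D1:**
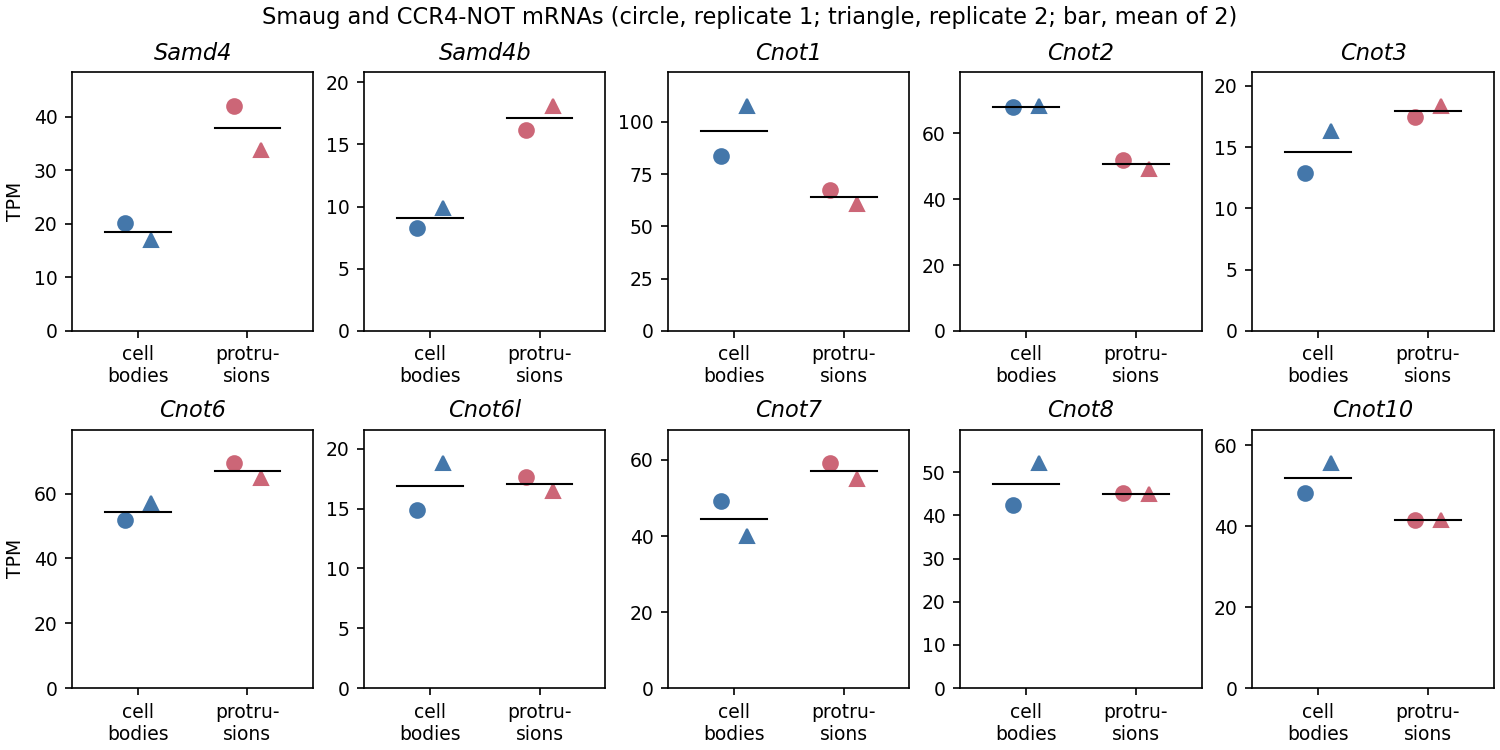
TPM of each of the 10 mRNAs (y axis, from 0) in the 2 cell body and 2 protrusion libraries, with circles for replicate 1, triangles for replicate 2 and bars for the mean of 2. *Samd4* and *Samd4b* stood about 2 times as high in both protrusion libraries, whereas the cell body and protrusion points of *Cnot6l* and *Cnot8* overlapped.

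The ratio of *Samd4* to *Samd4b* varied with the replicate more than with the fraction. It was 2.44 in cell bodies and 2.60 in protrusions of replicate 1, and 1.71 and 1.86 in those of replicate 2. The step from cell bodies to protrusions was thus 1.07-fold and 1.09-fold within the replicates, while replicate 1 lay above replicate 2 in either fraction. The mean difference of the log2 ratio between fractions was 0.11 (exact two-sided permutation p = 0.667, where 2 libraries against 2 cannot go below 0.333). This test could not pass at any value and takes no account of the pairing of the fractions within a replicate. Replicate 1 exceeded replicate 2 in both fractions for 27.1% of all genes tested, as for *Samd4*, and the reverse held for 26.0%, as for *Samd4b*. The profiles of the 2 Smaug mRNAs over the 4 libraries, each centred on its own mean on the log2 scale, lay 0.499 apart, and *Samd4b* ranked 471 among the genes nearest to *Samd4* and *Samd4* 898 among those nearest to *Samd4b*. The 5 nearest to *Samd4* were *Camk2n2*, *Pacs2*, *Abhd17c*, *Pkp4* and *Pcbp3*, at distances of 0.0741 to 0.158. The 5 nearest to *Samd4b* were *Khsrp*, *Zfpm1*, *Epb4.1l1*, *Git1* and *Slc25a39*, at 0.0366 to 0.0894.

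The difference between the Smaug mRNAs and those of the deadenylase was not itself tested, and the intervals of both *Samd4* and *Samd4b* overlap those of *Cnot3*, *Cnot6* and *Cnot7*. Among the 10 mRNAs, 2 passed as higher in protrusions, both of them Smaug mRNAs, against 341 genes or 2.99% of all genes tested, and none passed as lower, against 485 genes or 4.25%. The 8 CCR4-NOT mRNAs lay between -0.56 and 0.36 in log2 fold change, 4 above and 4 below 0, with a median of -0.02 beside -0.07 over all genes. All 8 had a 95% interval that stayed within 2-fold in either direction, as did 74.1% of all genes, and the 2 Smaug mRNAs did not. The 2 protrusion libraries both exceeded the 2 cell body libraries for 5 of the 10 mRNAs, a pattern seen in 26.4% of all genes, and both fell below them for 3, seen in 37.0%.

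**Figure D2:**
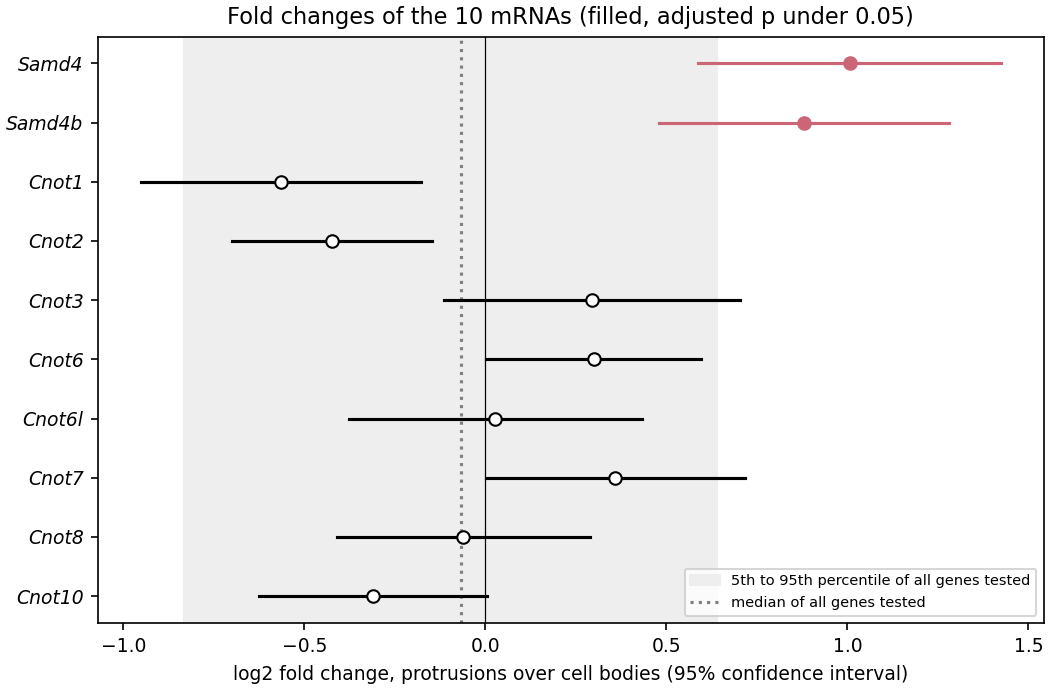
Fitted log2 difference, protrusions minus cell bodies, of each mRNA (x axis) and its 95% confidence interval, filled where the adjusted p was under 0.05. The grey band runs from the 5th to the 95th percentile of all genes tested, and only *Samd4* and *Samd4b* lay beyond it.

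*Cnot1* was the most abundant of the 10 mRNAs in cell bodies, at 83.8 and 107.7 TPM, and stood at 67.6 and 60.7 TPM in protrusions. Both protrusion libraries were below both cell body libraries, but by different steps, 0.807-fold in replicate 1 and 0.564-fold in replicate 2. The log2 fold change was -0.56 (SE 0.16, interval -0.95 to -0.18; adjusted p = 0.0793). *Cnot2* was at 68.0 and 68.3 TPM in cell bodies and 52.0 and 49.3 TPM in protrusions. Its 2 libraries of a fraction lay close together and the fractions were apart, at -0.42 (SE 0.11, interval -0.70 to -0.15; adjusted p = 0.0716). Neither *Cnot1* nor *Cnot2* was called in this fit. With the replicate as a block 2 mRNAs passed as lower, *Cnot1* with an adjusted p of 0.0207 and *Cnot2* with 0.0413, where 13.3% of all genes were called lower and 8.08% higher. *Cnot3*, the partner of *Cnot2*, was far less abundant, at 12.9 and 16.4 TPM in cell bodies and 17.5 and 18.4 TPM in protrusions. It was not called, at 0.29 (SE 0.17, interval -0.11 to 0.70), although its fractions did not overlap. *Cnot10*, which acts with *Cnot11* at the other end of the scaffold, was at 48.1 and 55.5 TPM in cell bodies and 41.6 TPM in both protrusion libraries. Its value was -0.31 (SE 0.13, interval -0.62 to 0.01; adjusted p = 0.165), and the block did not change its call.

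None of the 4 catalytic subunits was called in either fit. *Cnot6*, which encodes the CCR4a nuclease, was at 51.7 and 57.2 TPM in cell bodies and 69.4 and 64.8 TPM in protrusions. Protrusions were the higher in both replicates, by 1.34-fold and 1.13-fold, and the fit gave 0.30 (SE 0.12, adjusted p = 0.159). Its paralog *Cnot6l* was at 14.9 and 18.8 TPM in cell bodies and 17.7 and 16.5 TPM in protrusions. These fractions overlapped, and the fit gave 0.03 (interval -0.38 to 0.43). *Cnot7*, one of the paired CAF1 nucleases, was at 49.2 and 39.9 TPM in cell bodies and 59.1 and 54.9 TPM in protrusions. It stood higher in protrusions by 1.20-fold and 1.37-fold in the replicates, and was fitted at 0.36 (SE 0.15, adjusted p = 0.159; 0.0844 with the block). *Cnot8*, the other CAF1 nuclease, was at 42.4 and 52.1 TPM in cell bodies and 45.1 and 44.96 TPM in protrusions. Its protrusion libraries fell between the cell body libraries, and its value of -0.06 had an interval of -0.41 to 0.29 and turned to 0.02 when each library was centred on its median gene.

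The order of the 10 levels differed between the fractions. In cell bodies it ran from *Cnot1* through *Cnot2*, *Cnot6*, *Cnot10*, *Cnot8*, *Cnot7*, *Samd4*, *Cnot6l* and *Cnot3* to *Samd4b*, and neighbours from *Cnot6* to *Cnot7* and from *Samd4* to *Cnot3* overlapped in their 2 libraries. In protrusions it ran from *Cnot6* through *Cnot1*, *Cnot7*, *Cnot2*, *Cnot8*, *Cnot10*, *Samd4*, *Cnot3* and *Samd4b* to *Cnot6l*. There *Cnot6* overlapped *Cnot1*, *Samd4* overlapped *Cnot10*, and the last 3 could not be put in order. *Samd4* thus stood clear of all 6 abundant CCR4-NOT mRNAs in cell bodies and reached the range of *Cnot10* in protrusions.

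Summed over both genes, Smaug mRNA came to 28.5 and 26.8 TPM in cell bodies and 58.2 and 51.8 TPM in protrusions. The 8 CCR4-NOT mRNAs summed to 371 and 416 TPM in cell bodies and 370 and 351 TPM in protrusions. Of these sums only that of Smaug separated widely, and the CCR4-NOT sum joins 4 mRNAs fitted above 0 and 4 below. The ratio of the Smaug sum to the CCR4-NOT sum was 0.0769 and 0.0644 in cell bodies and 0.157 and 0.148 in protrusions, a 2.16-fold difference. It was 2.04-fold in replicate 1 and 2.29-fold in replicate 2. Taken over the 4 catalytic subunits alone the ratio went from 0.180 and 0.159 to 0.304 and 0.286, by 1.74-fold. The smaller step came with the catalytic sum, which was itself 158 and 168 TPM in cell bodies and 191 and 181 TPM in protrusions. Within the enzyme, the catalytic sum over *Cnot1* was 1.89 and 1.56 in cell bodies and 2.83 and 2.98 in protrusions, while the ratio of *Cnot6* and *Cnot6l* to *Cnot7* and *Cnot8* stayed between 0.728 and 0.835 in all 4 libraries. *Cnot7* over *Cnot8* was 1.16 and 0.767 in cell bodies and 1.31 and 1.22 in protrusions. *Cnot6* over *Cnot6l* was 3.47 and 3.04, then 3.93 and 3.92. These ratios follow from the levels given above and were not tested, and they concern mRNA, not the proteins. They were not corrected for the GC content of the transcripts, in which the 10 mRNAs differ.

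**Figure D3:**
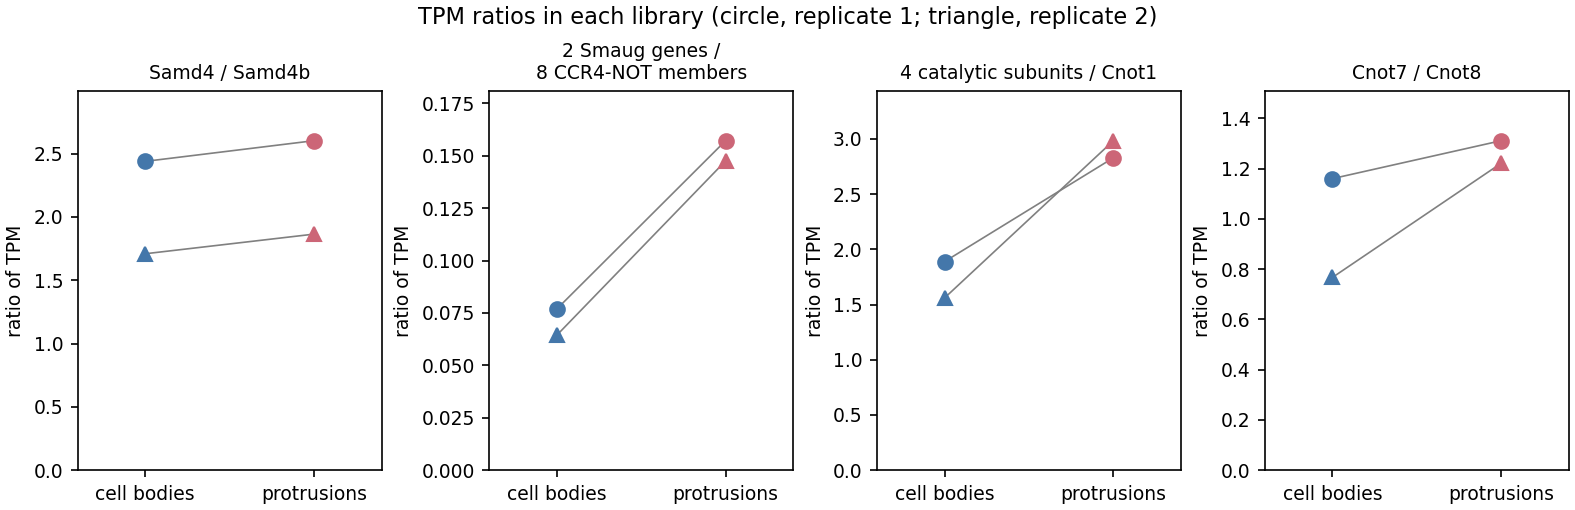
Ratios of TPM in each library (y axes, from 0), with a line joining the 2 fractions of a replicate. *Samd4* over *Samd4b* kept apart by replicate (2.44 and 2.60 against 1.71 and 1.86), and the Smaug sum over the CCR4-NOT sum by fraction (0.0644 and 0.0769 against 0.148 and 0.157).

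Across other genes of deadenylation and decay, 3 of 48 tested passed, 2 higher (2.99% of all genes tested were) and 1 lower (4.25% were), numbers near those shares. Of 9 other CCR4-NOT subunits and bound proteins, only *Tob2*, whose protein bridges the CAF1 nucleases and poly(A)-binding protein, was called. It rose from 7.47 and 8.07 TPM in cell bodies to 14.0 and 13.7 TPM in protrusions and was fitted at 0.80 on the log2 scale (SE 0.15, adjusted p = 0.0422). The list's median was -0.01. Of 10 poly(A)-binding proteins, their partners and poly(A) polymerases, *Pabpc4*, a cytoplasmic poly(A)-binding protein, was higher and *Papolg*, a nuclear poly(A) polymerase, lower. *Pabpc4* was at 69.1 and 64.4 TPM in cell bodies and 127 and 109 TPM in protrusions (0.81, adjusted p = 0.0355), and *Papolg* at 14.4 and 15.8 against 8.92 and 7.38 TPM (-0.86, adjusted p = 0.0443). The list's median was 0.21. *Pabpc1*, the main cytoplasmic poly(A)-binding protein, was at 198 and 303 TPM against 465 and 432 TPM. It was called only with the block (0.87, adjusted p = 0.0605 without it and 0.00404 with it) and was named after its values were seen.

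No gene of the other 3 lists passed without the block. Among 5 other deadenylases tested the smallest p belonged to *Parn* and *Pde12*, a poly(A)-specific ribonuclease and a mitochondrial one, at -0.30 and -0.23 (adjusted p = 0.234 and 0.264), with a list median of -0.16. Nocturnin, of the same nuclease family as CNOT6, was misspelt in that list and read after the other values were seen. *Noct* was at 10.6 and 11.3 TPM in cell bodies and 19.2 and 14.4 TPM in protrusions. Its log2 fold change was 0.58 (adjusted p = 0.0984, and 0.0486 with the block). Among 11 genes of decapping and 5′ to 3′ decay the median was 0.01. *Xrn1*, the 5′ to 3′ exonuclease that degrades decapped mRNA, was at 21.1 and 32.7 TPM against 17.3 and 15.9 TPM (-0.65, adjusted p = 0.121, 0.0352 with the block), and *Patl1*, a decapping factor, had 0.42 (adjusted p = 0.194). Among 13 other RNA-binding proteins that recruit CCR4-NOT the median was 0.15. *Zfp36l2*, which binds AU-rich elements, was at 94.9 and 113 TPM against 144 TPM in both protrusion libraries (0.47, adjusted p = 0.0747, 0.0233 with the block), and its paralog *Zfp36l1* had 0.38 (adjusted p = 0.204). None of these 13 reached the log2 fold change of either Smaug mRNA. Both Smaug mRNAs are on the study's list of enriched mRNAs from these same libraries, so this ranking is not independent evidence.

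**Figure D4:**
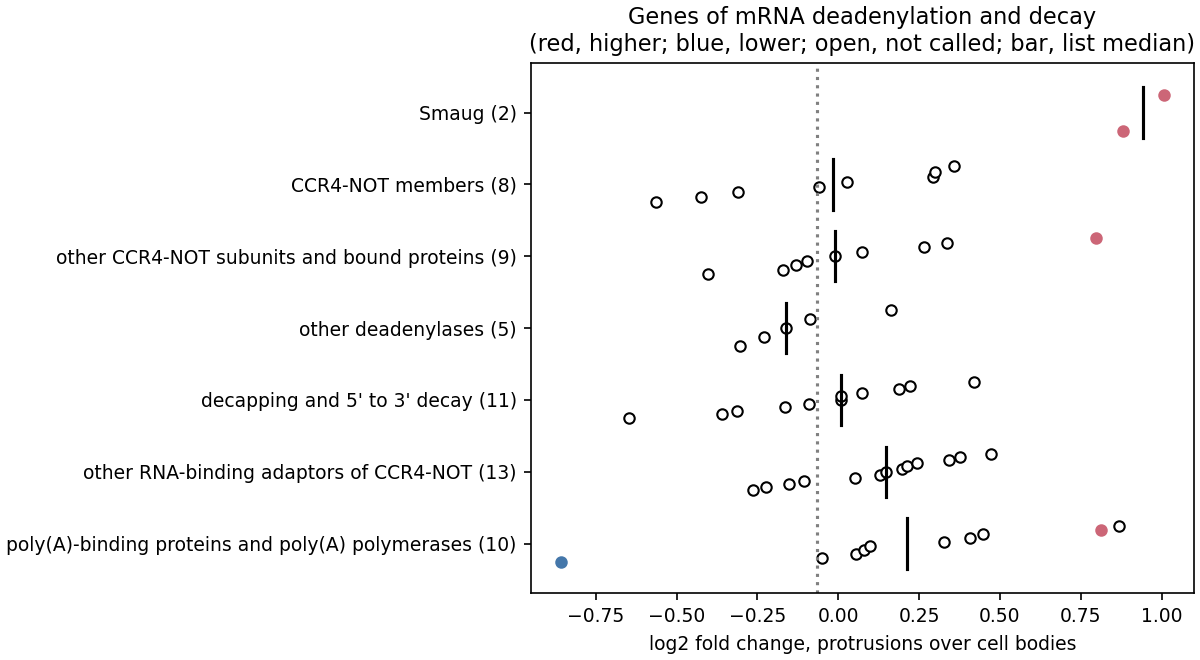
Log2 fold change of each tested gene (points) by list (rows, number of genes tested in brackets), with a bar at the list median and a dotted line at the median of all genes. Red and blue mark genes called higher and lower. Only the Smaug row has all of its points called, but its 2 genes are on the study's list of enriched mRNAs from these same libraries.

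GC content moved with the fold change over the whole table, and the 10 mRNAs differ in it. The median log2 fold change was -0.35 for transcripts of at most 40% GC and -0.25, -0.14, -0.00264 and 0.16 in the next classes up to over 55%. *Samd4* had 53.9% GC and *Samd4b* 57.3%, at percentiles 70.4 and 86.5 of genes, and *Cnot3* also had 57.3%. The catalytic mRNAs *Cnot6l* at 39.6%, *Cnot6* at 39.8% and *Cnot7* at 40.7% lay low, as did *Cnot2* at 43.8% and *Cnot1* at 45.8%. The remaining catalytic mRNA, *Cnot8*, was at 48.5%, percentile 41.5, and *Cnot10* at 50.4%. After a correction for GC in each library *Samd4* was at 0.97 and *Samd4b* at 0.73 (adjusted p = 0.0435 and 0.0457), so both kept their calls. *Cnot6* then stood at 0.63 and passed (adjusted p = 0.0435). With the correction and the block together *Cnot7* also passed, at 0.67 (adjusted p = 0.00474), while *Cnot1* at -0.38 and *Cnot2* at -0.19 no longer did (adjusted p = 0.0536 and 0.286).

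**Figure D5:**
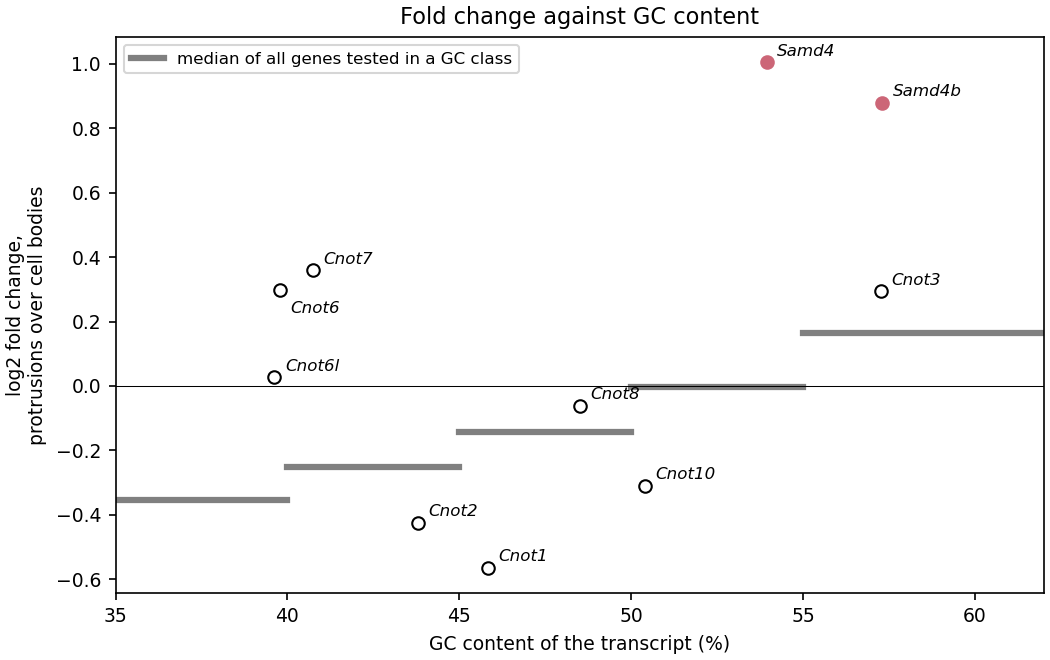
Log2 fold change of the 10 mRNAs (y axis) against the GC content of their transcripts in percent (x axis), with grey bars at the median of all genes in each GC class, the outer classes being open-ended. The bars climb from -0.35 to 0.16, and *Samd4*, *Samd4b*, *Cnot6* and *Cnot7* stood furthest above them.

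The words were chosen here and are no definition of the study's elements. Of the mRNAs used above as protrusion controls, *Kif1c* held 2.59, *Cyb5r3* 4.04 and *Rab13* 12.95 per kb of 3′ UTR, but *Net1* held none, although the study counts it among the mRNAs that use GA-rich elements, so these words miss such an mRNA. *Samd4* held 5 words, 2.96 per kb of 3′ UTR and percentile 84.0 of all 3′ UTRs, whereas *Samd4b*, with a similar fold change, held 1, or 0.484 per kb and percentile 32.8. The 2 counts do not cover the genes alike, since the *Samd4* transcript used leaves out more of the annotated exonic bases of its gene. The median of all 3′ UTRs was 1.28 per kb. Higher densities than that of *Samd4* were found in *Cnot3* (3.53 per kb from 1 word in 283 bases) and *Cnot7* (3.15 per kb from 3 words), of which *Cnot7* was called only with the GC correction and the block together and *Cnot3* in no fit. *Cnot2* held 1.93, *Cnot1* 1.05 and *Cnot6* 0.542 per kb, and *Cnot6l*, *Cnot8* and *Cnot10* none. Every value is for the 3′ UTR of the 1 transcript used of a gene, and longer forms were not searched.

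The 2 Smaug transcripts share no stretch of 50 bases with each other or with any other annotated gene, nor do those of *Cnot2*, *Cnot6*, *Cnot6l*, *Cnot7* and *Cnot10*. By contrast 21.6% of such stretches in *Cnot3*, 9.85% in *Cnot8* and 9.04% in *Cnot1* also occur in *Gm9207*, *Gm18860* and *Gm6158*, so the levels of these 3 are less certain. On the opposite strand *2810457G06Rik* overlaps 842 exonic bases of *Samd4*, or 9.73%. Opposite-strand overlaps also cover 6.07% of the exonic bases of *Cnot3* (*Leng1*), 5.69% of *Cnot2* (*5330438D12Rik*), 4.24% of *Cnot7* (*Zdhhc2*) and 0.769% of *Cnot1* (*4930513N10Rik*). The libraries mark strand, but no source used here says whether the counting read it, and without it reads in these overlaps cannot be told apart. On its own strand *Samd4b* shares 39 exonic bases, 0.835%, with *Pak4*, which was itself at 9.51 and 8.14 TPM in cell bodies and 15.3 and 18.9 TPM in protrusions (log2 fold change 0.91, adjusted p = 0.0440).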

How the data were processed

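Cell bodies and protrusions of YUMM1.7 cells, 2 libraries each, were grouped by the labels. The authors deposited 1 table of TPM per gene and library from stranded, rRNA-depleted single reads aligned to mm10. As tools, the methods name TopHat, while STAR and featureCounts stand in the submitters' processing notes beside FastQC and edgeR, with no versions there. The deposited log2 fold change, p-value, FDR and likelihood ratio score are the authors' own comparison and were not used. The deposited mean log2 CPM of the authors served only to scale the reads. Gene starts in the table count from 0 and are printed here from 1.

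Whole reads were recovered from the TPM ratios (all 4 values whole within 0.01 reads for 16537 of 16537 genes) for depth and for an alternative fit. Genes averaging 1 TPM or more, 11400 in number, entered a two-sided limma fit (version 3.58.1 in R 4.3.3, trended prior) of log2(TPM + 0.5), with Benjamini-Hochberg adjustment and calls at an adjusted p under 0.05. A pseudocount understates the fold changes of low genes. Replicate numbers pair the samples, since both fractions of a replicate came from the same inserts, and their deviations correlated at 0.447 over 11400 genes. The blocked fit is given where it changes a call of the 10 mRNAs or of a gene in the lists. It left 1 residual degree of freedom (prior 10.2), against 2 (prior 3.81) without the block. The members and lists were chosen with earlier results of these data known, and no p is adjusted over a list alone. From the other lists the genes called, or else the 2 with the smallest p, are named, and the 5 genes nearest to each Smaug mRNA by Euclidean distance. Transcript features came from GENCODE for GRCm38, in which the symbols of 15710 genes were found directly and those of 642 through RefSeq synonyms, with 1 transcript a gene, that of the longest coding sequence. Protein sequences were not used here.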

Additional observations from a re-analysis of the deposited data

How the results depend on the processing

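*Samd4* and *Samd4b* stayed higher in protrusions under all 14 alternatives (other pseudocounts and minimum levels, the replicate block, other scalings, GC correction, limma voom and each library left out) and kept their call under 9. With no minimum TPM neither was called (1.01 and 0.88, adjusted p = 0.0940 and 0.0988), nor with a library left out, where the lone sample is assumed to vary like the others and the log2 fold change was 0.85 to 1.16 for *Samd4* and 0.76 to 1.00 for *Samd4b*. Members called higher were then 0 to 0, were 0 without a minimum and 4 with GC correction and block, and 2 were called lower with the block. Limma counts over all genes, 341 higher and 485 lower, were 0 and 0 without a minimum (1468 and 2162 at an unadjusted p under 0.05), 921 and 1513 with the block, 1365 and 1599 with GC correction and block, 777 and 889 with voom, and 0 to 14 and 0 to 144 with a library left out. A minimum of 5 TPM gave 801 lower. In the wider lists 2 higher and 1 lower became 0 and 0 without a minimum or with any library left out, 4 and 2 with the block, 4 higher with median centring, voom or GC correction (0 lower with the last), and 10 higher with GC correction and block. *Cnot6l* turned to -0.13 and -0.02 without the first cell body or protrusion library (range -0.13 to 0.19). *Cnot8* turned to 0.0187 with median centring, 0.0639 with GC correction with or without the block, 5.09e-04 with voom and 0.0856 without the second cell body library (range -0.207 to 0.0856). The log2 ratio of *Samd4* to *Samd4b* turned to -0.15 and -0.13 without the second cell body or first protrusion library (range -0.15 to 0.37). That of Smaug to CCR4-NOT was 0.80 over the catalytic subunits and 0.99 to 1.24 with a library left out. The block changed no other call among the 10 mRNAs than those of *Cnot1* and *Cnot2*. Other causes were not tested, and 2 libraries a fraction limit every p.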
